A study of Zeugodacus cucurbitae with 52 samples.

Results

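Of the 18241 genes quantified in the melon fly Zeugodacus cucurbitae, 8112 were taken as having no informative name, being either described as uncharacterized (3631 genes) or newly assembled from the reads (4481 genes, with identifiers that start with MSTRG). Among these, 234 uncharacterized adult-female genes were selected by their own expression. The higher of their mean levels in 5-d-old and 9-d-old females was at least 5 TPM (transcripts per 1000000, a level per unit of gene length that adds up to the same total in each library), and it was at least 5 times the mean of every stage outside the females. The 234 genes comprised 157 reference genes and 77 newly assembled ones. As the selection used these levels, the stage profiles are given as a description and carry no test.

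Whole bodies were sampled at 13 stages, namely eggs (E), larvae at 1, 3 and 7 d (L1, L3, L7), pupae at 1, 5 and 9 d (P1, P5, P9), and virgin females (F1, F5, F9) and virgin males (M1, M5, M9) at 1, 5 and 9 d after emergence. Each stage had 4 biological replicates, and each library was a pool of whole, untreated animals from 1 laboratory culture, so the pool is the unit of replication. An adult pool held only a few flies. In whole bodies, fewer cells of a type and less RNA per cell cannot be told apart.

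Females of tephritid flies emerge with immature ovaries. Yolk proteins are then made and taken up by the growing oocytes, and the follicle cells around each oocyte lay down first the vitelline membrane and then the chorion, the outer eggshell. The nurse cells load the oocyte with maternal RNA, part of which is cleared in the embryo after fertilization. In Drosophila the chorion genes lie in clusters and are transcribed in short windows at the end of oogenesis. The paper reports database annotations for part of its newly assembled genes, and these were not used here. No function was assigned to any of the 234 genes, so they are ordered below by their pattern.

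Annotated genes of female reproduction were used to check the stages. Vitellogenin-1-like (gene11335), a yolk protein, averaged 1.66 TPM in F1, 14222 TPM in F5 and 5842 TPM in F9. Of genes listed by product, 5 of 16 yolk genes, 8 of 13 eggshell genes and 7 of 20 female germ line genes met the same thresholds of level and ratio, whereas 0 of 24 sperm genes, 0 of 9 male accessory gland genes and 0 of 7 fat body genes did. The fat body list holds only products named as larval serum or fat-body proteins, and yolk genes are counted in their own list. With the informative names included, 313 annotated genes met the thresholds. The level of eggshell genes differed widely between pools of one age, with a summed level between 560 and 12886 TPM in the F9 libraries and between 332 and 40550 TPM in the F5 libraries.

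The 234 genes together made up 0.0405% of all TPM in F1 (median over libraries), 7.01% in F5 (range 6.18% to 7.80%) and 5.75% in F9 (range 5.63% to 5.98%), against 0.327% in eggs and 0.0615% in 9-d-old males. The higher female level had a median of 51.9 TPM and was at least 100 TPM in 83 genes. The selection did not use F1. The F1 mean was a median of 0.480% of the higher level, at most 15.5% of it (MSTRG.18620), and above 1 TPM in 69 genes. Among the 313 annotated genes the corresponding median was 1.91%, and 4 of them stood at 20% or more in F1, against 0 of the 234.

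**Figure D1:**
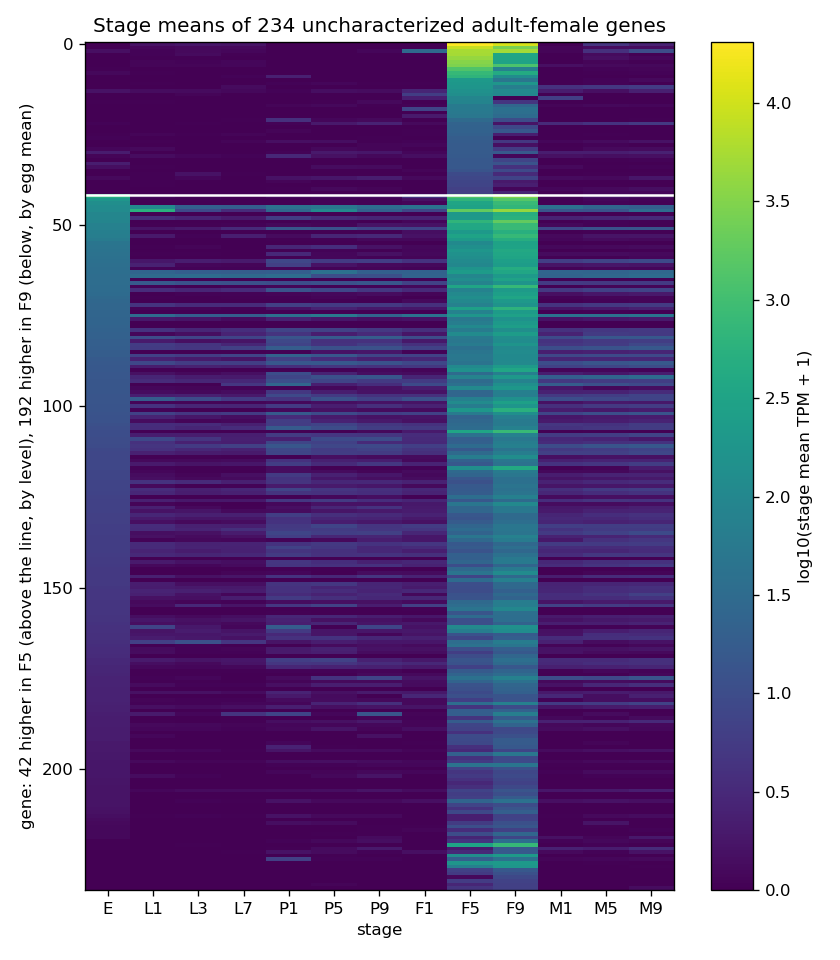
Mean level of each of the 234 genes (rows) in the 13 stages (columns), coloured by log10 of the stage mean TPM plus 1. The 42 genes above the line were higher in F5, all but 2 of them with an egg mean of 1 TPM or less, and the 192 genes below it were higher in F9 and mostly lit in eggs.

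The genes fell into a larger set that was highest in F9 and a smaller one that was highest in F5. The mean was higher in F9 in 192 genes (median F9 level 2.32 times that of F5) and higher in F5 in 42 genes (median 0.300 times). An egg mean above 1 TPM was found in 152 of the 192 genes (79.2%) and in 2 of the 42 (4.76%). The 192 genes had a median length of 1635.5 nt and included 54 newly assembled genes. The 42 genes had a median length of 564.5 nt, and 23 of them were newly assembled. The annotated genes divided in a similar way, with 265 higher in F9, of which 255 had an egg mean above 1 TPM, and 48 higher in F5, of which 5 did.

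Outside the females, the egg was the stage of highest mean for 144 of the 234 genes, followed by 9-d-old males (26 genes) and 1-d-old pupae (22 genes). Every stage outside the females was under 1 TPM in 66 genes, 42 of them newly assembled, and 7 genes were listed at 0 in all of those stages. Just inside the ratio threshold were gene7737, with 168 TPM against 33.1 TPM in its highest other stage, and gene11788, with 78.0 against 15.3 TPM. Just outside it were gene3605, with 48.8 against 9.83 TPM, and gene2024, with 90.8 against 18.3 TPM. At the level threshold, MSTRG.17240 (5.45 TPM) and gene1139 (5.49 TPM) were just inside, and MSTRG.7946 (4.95 TPM) and MSTRG.18122 (4.94 TPM) were just outside.

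The most abundant of the 234 genes belonged to a run of 7 short, newly assembled genes with numbers close together, MSTRG.10025, MSTRG.10027, MSTRG.10029, MSTRG.10030, MSTRG.10031, MSTRG.10033 and MSTRG.10035. StringTie numbers the loci it assembles, and their positions were not analysed here. Their lengths lay between 322 and 528 nt. None exceeded a mean of 3.57 TPM in any stage outside the females, and the highest value in any F1 library was 0.300 TPM. Together they took a median of 3.73% of all TPM in F5 and 1.28% in F9.

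MSTRG.10035 had the highest level of the 234 genes. It was listed at 0 in all 4 F1 libraries, stood at 20045, 23840, 16303 and 21221 TPM in F5, and stood at 9912, 11191, 13189 and 9970 TPM in F9. Every F9 library was below every F5 library, but the gene was not called (log2 fold change -0.88 ± 0.37 SE, adjusted p = 0.0533 by limma). Its change was also under the threshold of a log2 fold change of 2. The SE and p come from a fit over all 52 libraries, so they also draw on the spread of stages other than F5 and F9. MSTRG.10025 stood at 1199, 1237, 1464 and 1089 TPM in F9, against 3393, 3019, 2285 and 3215 TPM in F5. Here too the libraries of the ages did not overlap.

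The other genes of the run were far lower in 9-d-old females. MSTRG.10027 stood at 360, 347, 439 and 241 TPM in F9, against 4046, 5624, 5768 and 6309 TPM in F5. MSTRG.10029 stood at 313, 327, 416 and 235 TPM in F9, against 3026, 4441, 4723 and 4861 TPM in F5. MSTRG.10031 stood at 301, 305, 352 and 263 TPM in F9, against 2525, 3792, 3521 and 3611 TPM in F5. In none of these did the libraries of the ages overlap, and the F9 mean was 0.0638, 0.0757 and 0.0908 times that of F5. MSTRG.10033 was at 0.0585 times and MSTRG.10030, the least abundant of the run with a mean of 20.04 TPM in F5, at 0.0665 times. The F9 means of MSTRG.10025 and MSTRG.10035 were 0.419 and 0.544 times those of F5.

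The remaining genes of the highest level were of other kinds. The gene gene7911 (LOC105214329) is 381 nt long and is annotated by RefSeq as a long non-coding RNA. It was listed at 0 in every F1 library and stood at 2321, 2639, 2797 and 2782 TPM in F9, against 7027, 8336, 9284 and 9177 TPM in F5. The gene gene6577 (LOC105212878) differed little between these ages, with 5245, 4742, 5914 and 5004 TPM in F9, 6634, 5645, 3917 and 5849 TPM in F5, and the libraries overlapped. It was also among the highest in F1, with 51.9, 27.2, 20.4 and 17.5 TPM.

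A second group of abundant genes was higher in F9 and also present in eggs. MSTRG.992 stood at 3193, 3225, 2733 and 3317 TPM in F9, against 1465, 1562, 1098 and 1438 TPM in F5. MSTRG.3389 stood at 1915, 1929, 1539 and 2023 TPM in F9, against 629, 790, 551 and 627 TPM in F5. The gene gene1545 (LOC105220843), 6140 nt long, stood at 4452, 4461, 3744 and 4262 TPM in F9, against 2121, 2429, 1387 and 1584 TPM in F5. All F9 libraries were above all F5 libraries in the 3 genes.

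**Figure D2:**
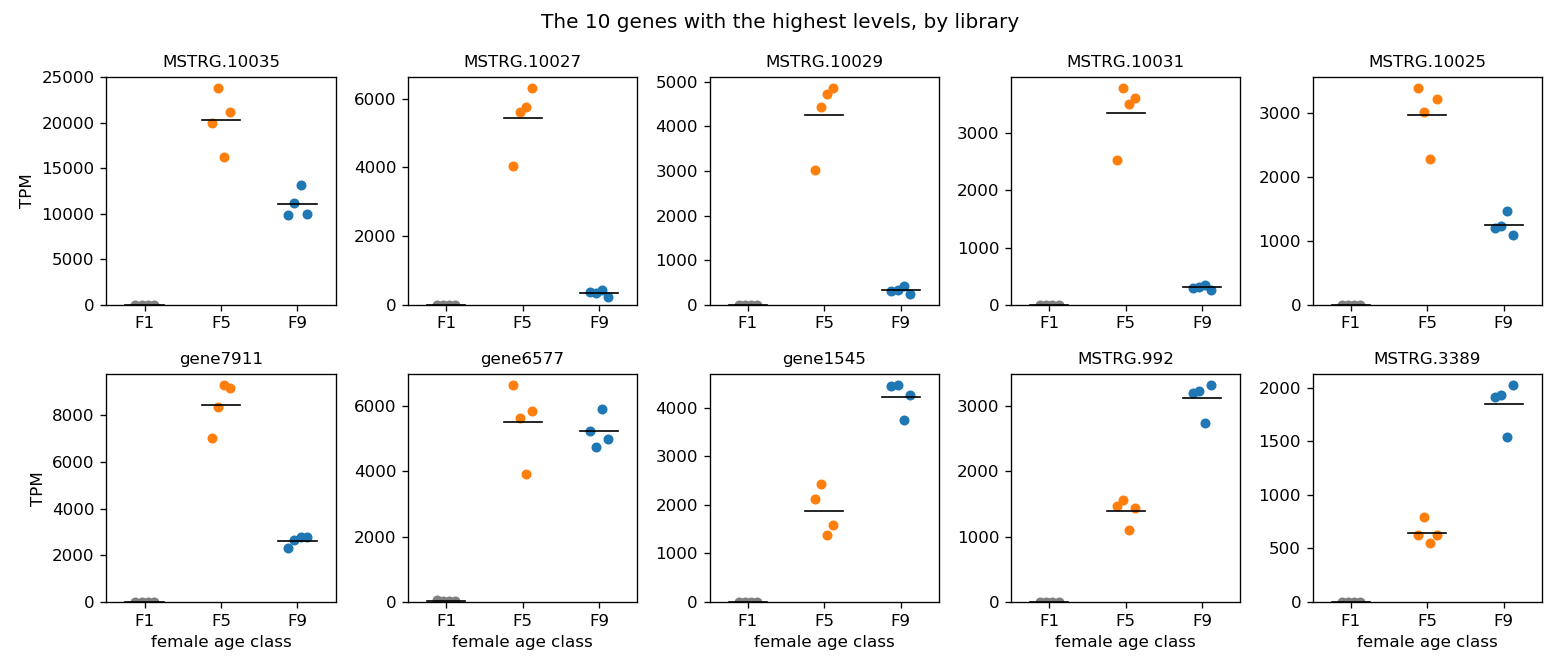
TPM in the 4 libraries (points) of F1, F5 and F9 for the 10 genes of highest level, each panel with its own scale from 0, and horizontal lines at the stage means. The upper row is from the MSTRG.10025 to MSTRG.10035 run, lower in F9, and the last 3 panels (gene1545, MSTRG.992, MSTRG.3389) are higher in F9.

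The change between 5 and 9 d after emergence was compared by limma on log2(TPM + 1). The selection used the higher of both means. It left the direction open but can enlarge differences either way, so the shares beside those of all genes are a description, and nothing about the genes is read from them. Most of the genes were moderately higher at 9 d, and few passed the threshold of a log2 fold change of 2. At an adjusted p under 0.05 and that threshold, 5 of the 234 genes were higher in F9 (2.14%, against 0.146% of the 17097 genes tested) and 19 were lower (8.12%, against 0.62%). At a threshold of 1, 143 were higher (61.1%, against 9.21%) and 28 were lower (12%, against 1.85%). The median log2 fold change was 1.12, against 0.05 over all genes tested, and 194 of the 234 genes had a change above 0. All F9 libraries lay above all F5 libraries in 165 genes (31.8% of all genes tested did so) and below them in 16 genes (7.21% of all genes tested).

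The counts of moderate increases depended on the scale. After median-of-ratios scaling between libraries, 30 genes were higher and 31 lower at a threshold of 1 (136 and 688 of the 17097 genes tested), with a median change of 0.62, and at a threshold of 2 the counts were 1 and 21 (5 and 130 of all genes tested). Without F5 replicate 2 the genes called higher at a threshold of 2 numbered 8 (30 of all genes tested), and without F5 replicate 4 they numbered 11 (38). The 313 annotated genes had a median change of 1.13, with 214 higher and 38 lower at a threshold of 1.

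The genes called higher in F9 were scarce transcripts. The gene gene409 (LOC105209856) stood at 43.4, 39.4, 21.6 and 33.2 TPM in F9, against 1.2, 5.04, 0.670 and 5.95 TPM in F5 (log2 fold change 3.28 ± 0.26 SE). MSTRG.11044 stood at 15.6, 16.8, 12.9 and 14.9 TPM in F9, against 0.900, 5.25, 1.66 and 0.800 TPM in F5 (2.54 ± 0.25 SE). MSTRG.15561 stood at 22.7, 10.5, 8.92 and 15.6 TPM in F9, against 2.80, 6.55, 0 and 2.37 TPM in F5 (2.22 ± 0.44 SE). The libraries of the ages did not overlap in these genes. The gene gene9911 averaged 7.45 TPM in F9 and 0.303 TPM in F5 and was listed at 0 in all stages outside the females. In gene7364, the remaining gene called higher, the libraries overlapped. After scaling only gene409 kept its call. The SE values come from the fit over all 52 libraries, so they also draw on the spread of stages other than F5 and F9. A fit of the 8 compared libraries alone also called 5 higher (26 of the 13815 genes tested).

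Of the 19 genes called lower in F9, 6 had no overlap between the libraries of the ages. They were MSTRG.10033 (log2 fold change -4.07 ± 0.11 SE), MSTRG.10027 (-3.98 ± 0.16 SE), MSTRG.10029 (-3.72 ± 0.17 SE), MSTRG.10031 (-3.45 ± 0.11 SE), MSTRG.10030 (-3.16 ± 0.12 SE) and MSTRG.14507 (-2.14 ± 0.09 SE). MSTRG.14507 stood at 41.5, 51.4, 51.7 and 46.1 TPM in F9, against 193, 276, 184 and 209 TPM in F5. The fit over all 52 libraries shares one estimate of the spread with stages in which these genes were at or near 0. In a fit of the 8 compared libraries alone 8 genes were called lower (76 of all 13815 genes tested), among them all 6 without overlap. The remaining 13 calls are therefore described by the levels of their libraries, most of them below. MSTRG.18305, called in both fits, stood at 3.75, 8.42, 0.360 and 0 TPM in F9, against 17.0, 5.77, 8.05 and 25.5 TPM in F5. MSTRG.17739 stood at 5.66, 12.1, 0 and 0.990 TPM in F9, against 18.0, 8.17, 8.64 and 29.9 TPM in F5. The gene gene929 stood at 1.07, 0.33, 0.32 and 0.35 TPM in F9, against 5.79, 51.1, 8.08 and 0 TPM in F5. In each of them the libraries of the ages overlapped.

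**Figure D3:**
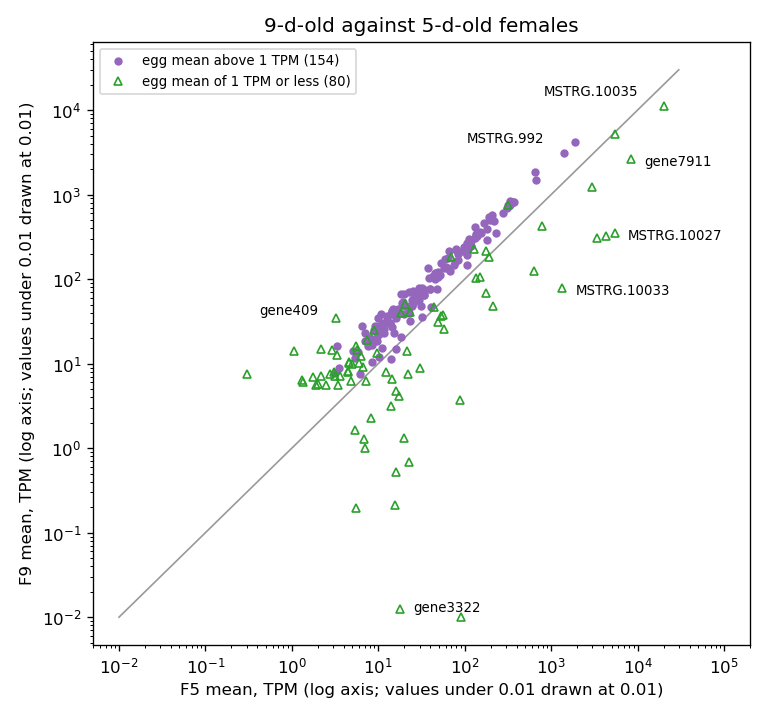
F9 mean against F5 mean of each of the 234 genes in TPM on log axes, with the line of equal level. Genes with an egg mean above 1 TPM (filled circles) lie mostly above the line, and the genes far below it (open triangles) had an egg mean of 1 TPM or less.

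At a threshold of 1, the presence of a gene in eggs went with the direction of its change with age. Of the 143 genes higher in F9, 120 (83.9%) had an egg mean above 1 TPM, and of the 28 genes lower in F9, 0 did. Their median lengths were 1599 nt and 688 nt. At a threshold of 2, an egg mean above 1 TPM was found in 0 of the 5 genes higher and 0 of the 19 lower. After scaling, 30 genes were higher and 31 lower at a threshold of 1, and their egg levels were not counted. Egg means also entered the selection under its ceiling. The female germ line list holds genes such as vasa and bicaudal C with roles in the oocyte in Drosophila. Of its 20 genes, 13 were higher in F9 at the threshold of 1 and 0 were lower, against 9.21% and 1.85% of all genes tested. Vasa (gene11258), with means of 472 TPM in F9 and 283 TPM in F5, was not among the 13. The lists by product were not counted after scaling. In the eggshell list 2 of 13 were higher and 4 were lower, with overlap between the libraries of the ages in all 4, and in the yolk list 0 of 14 tested were higher and 4 were lower. In the sperm list 2 of 24 were higher and 0 lower, in the fat body list 1 of 7 was higher and 0 lower, and in the accessory gland list 0 of 9 changed.

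Several genes were present in some pools of an age and nearly absent from others, unlike the abundant genes above. At least a 20-fold difference between the highest and the lowest F5 library, with the highest at 5 TPM or more, was found in 14 genes, whereas 157 genes differed by less than 2-fold. The median over all genes with a value above 0 in each F5 library was 1.61-fold, and in F9 it was 1.32-fold. They were picked out by this spread, so the differences between pools were not tested.

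The gene gene4309 (LOC105210488), 577 nt long, stood at 1687, 31.2, 2.40 and 1.86 TPM in F9, against 1682, 732, 690 and 18.8 TPM in F5. Its neighbours in the gene order of the RefSeq annotation are a fibroin heavy chain-like gene (gene4308), 1 step away, and chorion protein S16 (gene4310), 2 steps away. Chorion protein S16 stood at 2663, 30.3, 3.43 and 1.2 TPM in F9, against 1560, 1396, 1351 and 1.10 TPM in F5. The same libraries were thus high or low in gene4309 and in the neighbouring chorion gene.

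The gene gene4409 (LOC105210602) lies 2 steps from chorion protein S36 (gene4407) and 3 steps from chorion protein S38 (gene4406). Also near it are gene4408 (serum response factor homolog A), 1 step away, and gene4405 (OTU domain-containing protein 4), 4 steps away. They averaged 4.76 and 124 TPM in F9, against 91.5 and 60.5 TPM in F5. The gene gene4409 stood at 14.1, 0.340, 0.210 and 0.05 TPM in F9, against 0.310, 193, 156 and 0.120 TPM in F5. Chorion protein S36 stood at 315, 4.28, 0.370 and 0.450 TPM in F9, against 3.88, 1456, 554 and 0.320 TPM in F5. F5 replicates 2 and 3 and F9 replicate 1 were the high libraries in both genes, while F5 replicate 1, high in gene4309 and S16, was low in both.

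Other genes were high in part of the same libraries. With F5 replicates 2 and 3 alone at a high level were gene780 (50.4 and 38.5 TPM), gene3322 (45.3 and 25.9 TPM), gene5760 (30.2 and 31.0 TPM) and gene1139 (12.4 and 9.52 TPM), each under 2 TPM in the other F5 and F9 libraries. With F5 replicates 1, 2 and 3 and F9 replicate 1 high were gene5003, a gene of 100 nt (143 TPM in F9 replicate 1, and 88.4, 65.0 and 61.8 TPM in F5 replicates 1 to 3), and gene11157 (97.3 TPM in F9 replicate 1, and 46.0, 124 and 61.1 TPM in F5 replicates 1 to 3). The gene gene11157 is 2 steps from a mucin-2-like gene (gene11155), which stood at 7015, 90.9, 1.71 and 5.91 TPM in F9, against 6320, 890, 2429 and 55.2 TPM in F5. The next uncharacterized gene in the numbering, gene11158, stood at 28.0, 2.1, 0.340 and 0.0900 TPM in F9, against 42.2, 8.11, 26.6 and 10.8 TPM in F5.

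In MSTRG.15852 and MSTRG.15851, a pair with adjacent numbers, F9 replicate 3 was the highest F9 library and lay within the range of the F5 libraries. In MSTRG.15852, F9 replicate 1 also lay within that range, just above the lowest F5 library. MSTRG.15852 stood at 136, 10.1, 342 and 7.71 TPM in F9, against 1248, 621, 531 and 131 TPM in F5, and MSTRG.15851 stood at 0, 0, 4.02 and 0 TPM in F9, against 9.05, 13.3, 4.20 and 1.54 TPM in F5. MSTRG.10421 was selected through 1 library alone. It stood at 366 TPM in F5 replicate 2 and was listed at 0 in the other F5 libraries and in all F9 libraries.

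**Figure D4:**
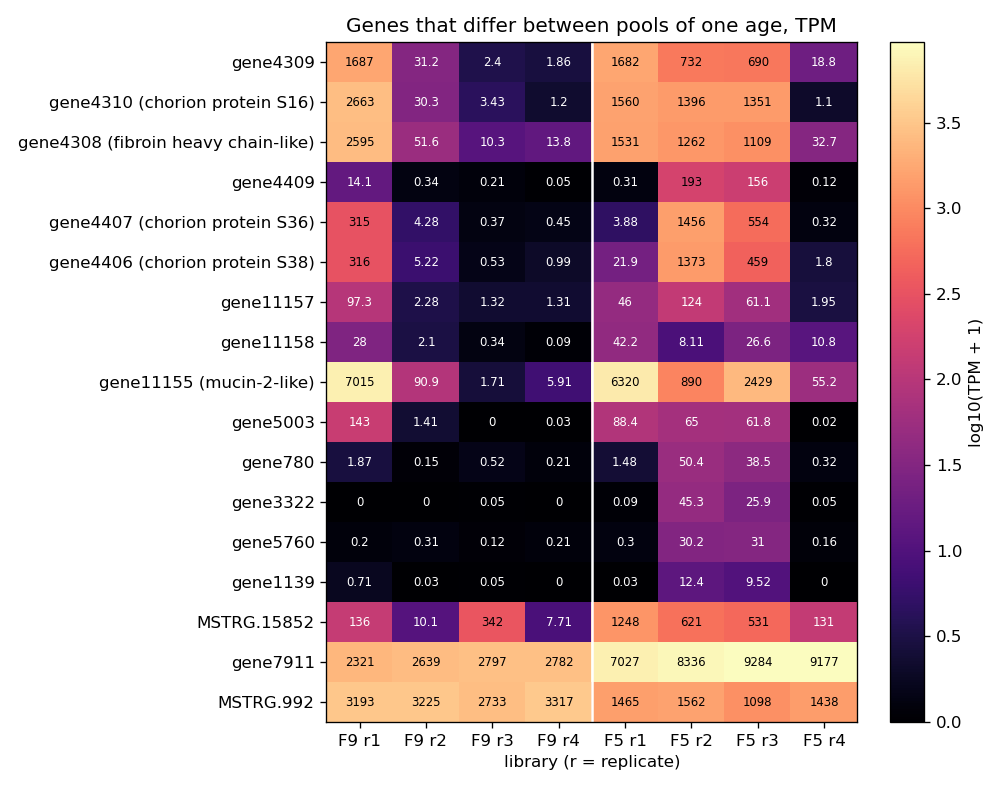
TPM of 12 of the 234 genes and of 5 annotated neighbours (with products in brackets) in the 4 F9 libraries (left) and the 4 F5 libraries (right), coloured by log10(TPM + 1). The rows gene4309 and gene4409 are high in the same libraries as the chorion genes beside them, and gene7911 and MSTRG.992 in the lowest rows are high in all 8 libraries.

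The level in newly hatched larvae was compared with that in eggs. Both means entered the selection under the same ceiling, so the counts and the shares beside them are a description here too. The egg mean was above 1 TPM in 154 genes, and 0 of the 234 were called higher in L1 while 71 were called lower (30.3%, against 4.45% of all genes tested, with 2.64% of all genes called higher). At an unadjusted p under 0.05 by limma, 4 genes were higher in L1 and 158 were lower, with no count made over all genes. At an adjusted p under 0.05 with no threshold of fold change, 3 were higher and 157 lower. Of all 17097 genes tested, 1841 were higher and 7968 lower in that way. A fit of the 8 compared libraries alone, in which 172 of the 234 genes and 14274 genes in all were tested, also called 0 higher and 71 lower (452 and 754 of all genes). At a threshold of 1, 121 were lower (51.7%, against 22.4%) and 0 were higher (against 5.35%). The median log2 fold change was -1.07, against -0.35 over all genes tested. Scaling moved the median of all genes to -0.04 and that of the 234 genes to -0.73, with 56 called lower and 1 called higher. Over all genes the order of the counts turned round with scaling, to 434 lower and 669 higher, against 761 lower and 452 higher without it.

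MSTRG.992 had the highest egg level, with 0.530, 0.330, 0.0600 and 0.360 TPM in L1, against 475, 533, 528 and 412 TPM in eggs (log2 fold change -8.54 ± 0.18 SE). MSTRG.9535 stood at 0.0300, 0, 0.130 and 0.130 TPM in L1, against 191, 201, 188 and 159 TPM in eggs (-7.43 ± 0.12 SE). The gene gene7530 (LOC105213917) stood at 0, 0.0400, 0.0400 and 0.0400 TPM in L1, against 150, 137, 120 and 118 TPM in eggs (-7.00 ± 0.09 SE). MSTRG.3389 was listed at 0 in all L1 libraries and stood at 99.2, 113, 58.0 and 95.9 TPM in eggs, and gene10540 (LOC105217198) stood at 0.0300 TPM or less in L1, against 163.1, 77.7, 34.2 and 101 TPM in eggs. Of the 64 genes with an egg mean above 10 TPM, 37 had an L1 mean under 1 TPM, a count given with no share for other genes.

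By the read and base totals the study lists, the trimmed reads of L1 were longer on average than those of eggs, so stage and trimmed read length cannot be told apart in this comparison. The reads of F5 and F9 were alike in length, and those of F1 were shorter, which bears in the same way on the levels in F1. The egg level of a gene with a higher F9 mean was a median of 10.0% of its F9 level, but the selection capped it at 20%, and genes with more RNA in eggs were not selected.

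Some genes were not lower in larvae. The gene gene1545 averaged 539 TPM in L1 and 119 TPM in eggs, the highest log2 fold change of the 234 genes (1.61 ± 0.77 SE). It stood at 1225, 28.6, 252 and 649 TPM in L1, against 34.5, 152, 52.8 and 236 TPM in eggs. The libraries of the stages overlapped, and the gene was not called, though it was called higher after scaling and also without L1 replicate 2 or without E replicate 4. The gene gene6464 (LOC105212756) averaged 104 TPM in L1 and 120 TPM in eggs. These genes, with MSTRG.992, MSTRG.9535 and gene7530, were those of highest level outside the females.

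**Figure D5:**
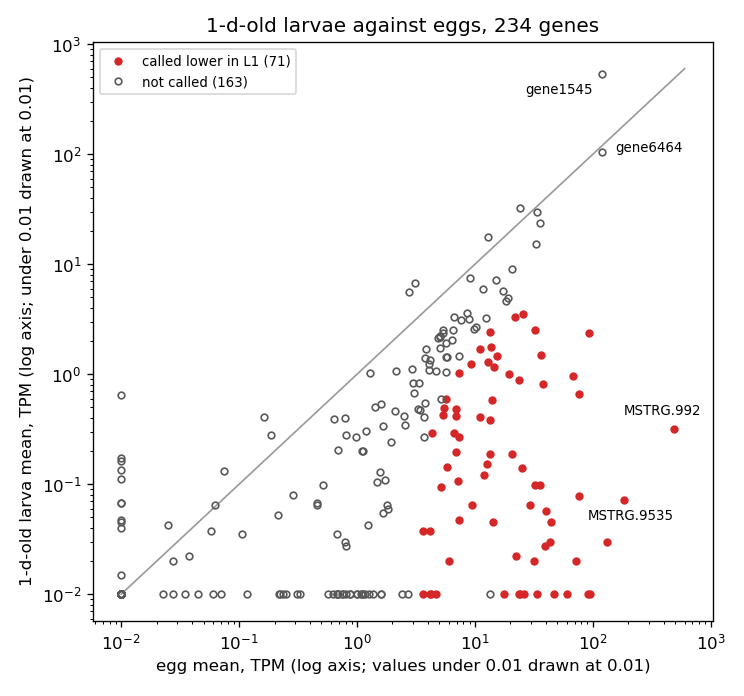
L1 mean against egg mean of the 234 genes in TPM on log axes, with the line of equal level. The 71 genes called lower in L1 (filled) lie below the line, and gene1545 and gene6464 are at the upper right.

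The genes of highest level in newly emerged females were gene973, gene6464, gene6577, gene6442 and gene4941, with F1 means of 43.1, 42.5, 29.2, 22.5 and 21.9 TPM. Apart from gene6577, these genes were also measured in most other stages. The gene gene973 (LOC105216108) averaged 53.6 TPM in P5 and 45.8 TPM in M9, and its female level was 43.1 TPM in F1, 181 TPM in F5 and 287 TPM in F9. The gene gene4941 averaged 39.7 TPM in P5, and gene6442 averaged 33.7 TPM in eggs.

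Part of the genes had close neighbours among the 234, which is given as a count with no share for other genes. By identifier number, 68 genes fell into 26 groups in which the numbers of successive members were at most 5 apart, 32 of them newly assembled (9 groups) and 36 of the reference (17 groups). In the RefSeq gene order, which could be read for the 131 of 157 reference genes that matched RefSeq, 29 genes had another of the 234 within 5 steps and 31 had an annotated gene of the same thresholds. The RefSeq annotation classed 125 of the 131 as protein coding and 6 as long non-coding RNA.

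Neighbours did not always share a pattern. In the group of gene409, gene410, gene411 and gene412, gene409 averaged 34.4 TPM in F9 and 3.22 TPM in F5, while gene410 averaged 181 TPM in F9 and 193 TPM in F5 and gene411 averaged 760 TPM in F9 and 317 TPM in F5. All 4 were at or under 0.0700 TPM in eggs and in F1. The groups of MSTRG.3382 to MSTRG.3392 (6 genes) and MSTRG.3398 to MSTRG.3401 (3 genes) were higher in F9 throughout, with MSTRG.3389 (1852 TPM in F9, 649 TPM in F5) and MSTRG.3401 (800 TPM in F9, 345 TPM in F5) the most abundant. In the pair gene10539 and gene10540, the F9 means were 489 and 498 TPM, against F5 means of 219 and 195 TPM.

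The annotated genes whose levels were most like those of the 5 most abundant genes were sought by Pearson correlation of log2(TPM + 1) over the 12 female libraries. The points share the step between F1 and the later ages, so high values of r are to be had by any gene with that step. Most like MSTRG.10035 were vitellogenin-1-like (gene11335, r = 0.996), homeobox protein aristaless (gene4566, r = 0.996) and the insulin receptor (gene9355, r = 0.994). Most like gene7911 were venom allergen 3-like (gene3885, r = 0.997), vitellogenin-1-like (r = 0.997) and aristaless (r = 0.996). Most like gene6577 were the putative vitellogenin receptor (gene2859, r = 0.993), through which oocytes take up yolk protein, cell wall protein IFF6-like (gene10550, r = 0.993) and the insulin receptor (r = 0.992). Both MSTRG.10027 and MSTRG.10029 had the same nearest genes, sarcocystatin-A-like (gene7515), a fucosyltransferase C-like gene (gene3875) and a glucose dehydrogenase-like gene (gene8685), with r between 0.993 and 0.996.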

How the data were processed

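The authors trimmed the reads, aligned them with HISAT2 2.1.0, assembled new transcripts with StringTie and estimated TPM per gene with RSEM 1.3.1 (tool versions from the submitters' processing notes). The genome build is not given in the sources used here. The deposited values are in TPM, normalized within each library and not scaled between libraries, and as they keep no counts per gene, no counting interval is given. A deposited column of gene length in nucleotides, of unstated derivation, holds another value per gene.

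The members and the lists by product were chosen with earlier results of these data known. Differences between stages were tested with limma 3.58.1 in R 4.3.3 on log2(TPM + 1), using a variance trend and robust moderation and a single fit to the 52 libraries. The SE printed with each fold change is from this fit, so it draws on the spread in all stages. A gene entered the fit if it exceeded 0.1 TPM in 4 or more libraries, which left 17097 genes, and the Benjamini-Hochberg adjustment ran over all of these. A call required adjusted p under 0.05 together with a log2 fold change of more than 2 in either direction. On simulated data for F9 against F5 (17462 genes), 98 of 100 well expressed genes given a log2 change of 2.5 and 100 of 100 given a change of 3 were called, as were 3 of 17262 unchanged genes. The simulation gave each gene the same spread in all stages. It therefore cannot show how often genes are wrongly called where the spread differs between stages. The fold change on this scale understates the change of low genes. The study's test on counts, DESeq2, was not repeated, as the table holds TPM.

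Genes named were those of highest level in 5-d-old or 9-d-old females (10), in F1 (5), in another stage (5) and in eggs (3), the called genes of largest change without overlap, those next to a threshold, neighbours, and the annotated genes most like the 5 most abundant. Genes that differed between pools, and the remaining called genes, were named after their values were seen. Gene order and biotypes came from the RefSeq annotation of assembly idZeuCucr1.2 by symbol, for names and neighbours only. Python 3.11.15, numpy 2.4.6, pandas 2.3.3 and matplotlib 3.10.9 were used. Alternatives covered the pseudocount, the filter, scaling, a replicate block, the libraries in the fit, the moderation, the thresholds and each library left out in turn.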

Additional observations from a re-analysis of the deposited data

Results flagged for a closer look

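In 7 of 87 groups of 4 libraries looked at (named and called genes, in the stages for which they were named), 1 library was far from the others. The 87 include groups with no library at 5 TPM or more, which were not judged. Some of the genes were picked for their spread between F5 libraries, so the count cannot be set against a rate given by chance. The groups share libraries. In 5 of the 7 the library was F9 replicate 1, which was the highest for gene4309 (1687 TPM, next 31.2 TPM), gene4409 (14.1 TPM, next 0.340 TPM), gene11157 (97.3 TPM, next 2.28 TPM), gene11158 (28.0 TPM, next 2.1 TPM) and gene5003 (143 TPM, next 1.41 TPM). Chorion protein S16, S36 and S38 were also highest in that library among the F9 libraries, at 2663, 315 and 316 TPM. Other eggshell genes were highest in F9 replicate 3. Vitelline membrane genes gene4569 and gene4571 stood at 5398 and 6813 TPM there, against 1809 and 2609 TPM in F9 replicate 1. Defective chorion-1 (gene7265) stood at 122 TPM in F9 replicate 3, against 29.8 TPM in F9 replicate 1. The part of eggshell transcripts in these values was not tested. In the other 2 the library was F5 replicate 2, with 366 TPM of MSTRG.10421 (0 TPM in the others) and 51.1 TPM of gene929 (next 8.08 TPM).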

How the results depend on the processing

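The number of selected genes was 116 at a ratio of 10, 404 at a ratio of 3 and 131 after median-of-ratios scaling. Leaving out each female library in turn gave 230 to 249. In the counts of calls that follow, those over all genes tested are in brackets. For F9 against F5, genes called higher numbered 10 (87) with a pseudocount of 0.1, 1 (5) after scaling and 143 (1575) at a log2 fold change above 1. With each library left out they numbered 4 to 11 (22 to 38). Genes called lower numbered 8 (76) in the fit of the compared libraries alone and 13 to 22 (84 to 124) with each library left out. For L1 against eggs, genes called lower numbered 115 (1564) with a pseudocount of 0.1 and 121 (3836) at a log2 fold change above 1. With each library left out they numbered 69 to 72 (717 to 807). Genes called higher numbered 1 (669) after scaling and 0 to 1 (423 to 457) with each library left out. MSTRG.11044 (1.93) and MSTRG.15561 (1.62) fell under the threshold after scaling, and MSTRG.15561 also did without F9 replicate 1 (1.98) and without F5 replicate 3 (1.67). None of the 13 named changes turned direction in the alternatives run, but over the 234 genes scaling turned the sign of 13 for F9 against F5 and of 9 for L1 against eggs, and leaving out 1 library turned at most 4 and 5. The cause of the other changes was not tested beyond the fewer libraries or other threshold that a setting imposes. Deviations of samples with the same replicate number had low correlations (-0.07 to 0.22 for the females and -0.01 to 0.06 for larvae and eggs). The same number gave the highest correlation for replicate 4 of F9 with F5 and for replicates 1, 2 and 4 of L1 with eggs. A replicate block left 5 higher (24) and 19 lower (106) for F9 against F5 and 0 higher (451) and 71 lower (761) for L1 against eggs. As TPM keeps no counts per gene, no detection limit is given for a gene listed at 0.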
